A study of Rattus norvegicus with 9 samples.

Results

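The astrocyte marker genes described here are Gfap, Aqp4, S100b, Gja1, Slc1a2, Slc1a3, Aldoc, Agt, Fgfr3 and Atp1b2. They were chosen by name, and every probe set that the platform annotation gives to 1 of these symbols alone was taken. All 10 genes were found, of 14217 genes named by a single symbol, with 19 probe sets among the 31042 left after the manufacturer's controls were removed. Expression was measured in the hypothalamus of 9 male rats aged 13 weeks, on 1 Affymetrix rat array per animal. Noodle-diet rats 1, 4, 7 and 13 ate a diet of 30% instant noodle by weight with its seasonings, and control rats 2, 5, 8, 11 and 14 ate that diet lacking the seasonings. Fat gave 26% of the energy on both diets, and feeding lasted 30 days by one label and 4 weeks by another. Feeding was paired, at about 60 g of diet per kg of body weight per day, under 12 h of light and dark. The labels name neither the strain nor the time of dissection. Array medians lay between 6.777 and 6.785.

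Astrocytes are the glial cells that take up glutamate and potassium around synapses, sheathe blood vessels with water-permeable endfeet and line the brain surface beneath the meninges. In the hypothalamus they border neurons that sense osmolality, nutrients and hormones, and their filament and channel genes are known to change in reactive states. Gfap encodes their intermediate filament, Aqp4 the endfoot water channel, Gja1 a gap junction connexin and Atp1b2 a glial beta subunit of the sodium pump. Slc1a2 and Slc1a3 encode the glial glutamate transporters, Aldoc a glycolytic aldolase, S100b a calcium-binding protein, Agt angiotensinogen and Fgfr3 a fibroblast growth factor receptor. Several are not strictly astrocytic, since S100b is also made by oligodendrocyte-lineage cells and Aqp4 by ependymal cells.

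The deposited values are on a log2 scale, and the 19 probe sets fell into a variable and a compressed class. In 8 of them the range over the 9 rats lay between 0.242 (Aldoc) and 0.898 (Gfap) log2 units. In the other 11 it lay between 0.000153 and 0.00121. Probe sets above 0.05 are called variable, and only 3.94% of all 31042 were, against 42.1% of the astrocyte marker probe sets. Nothing lay near the limit: the narrowest variable member was Aldoc and the widest compressed one a Slc1a2 probe set. Variable probe sets were found for Gfap, Aqp4, S100b, Gja1, Atp1b2 and Aldoc. Slc1a2, Slc1a3, Agt and Fgfr3 had compressed ones alone. A compressed probe set cannot show a fold change of its transcript, so its values are given below for their order and test only.

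**Figure D1:**
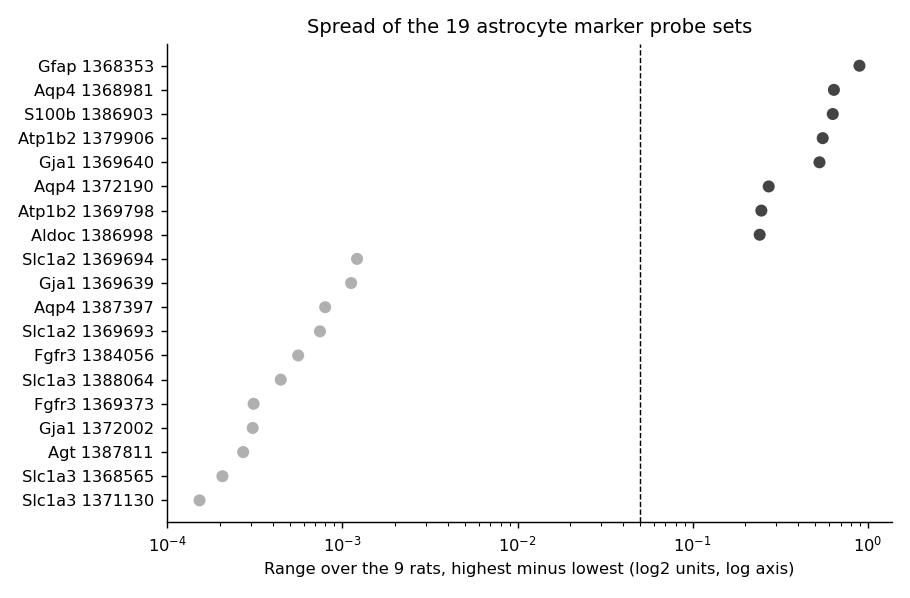
Range over the 9 rats (log2 units, on a log axis) of each of the 19 probe sets, dark for variable and pale for compressed, with the limit of 0.05 as a dashed line. The 8 variable probe sets lie from 0.242 upward and the 11 compressed ones at 0.00121 or below, and Aqp4 and Gja1 have probe sets on both sides.

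The same gene could fall on both sides of this limit. For Gja1, 1 of 3 probe sets was variable (1369640_at), while 1372002_at held 11.62 in every rat within a range of 0.000307. For Aqp4, 2 of 3 were variable, and 1387397_at held 8.07 within 0.000797. With the variable Aqp4 probe sets the compressed one had Pearson r of 0.772 (1368981_at; rho = 0.7) and 0.680 (1372190_at; rho = 0.35) over the 9 rats. Without noodle-diet rat 1 these r were 0.654 and 0.231. For the compressed Gja1 probe sets r with the variable one was 0.426 and 0.402, and 0.56 and -0.0087 without that rat. These r are descriptions of values that share arrays, and no test was made of them.

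Among the members, Gja1 and Atp1b2 were the genes of different symbol that followed each other most closely over the rats, and Gfap was the most variable. Their promoters are shown as the 250 bases before the annotated start (RefSeq, build GRCr8), 5′ to 3′ on the gene's strand. That of Gja1 lies at chr20:36302314-36302563 (plus strand), that of Atp1b2 at chr10:54823709-54823958 (minus strand) and that of Gfap at chr10:88361662-88361911 (minus strand). Capitals mark matches to the motifs searched.
Gja1: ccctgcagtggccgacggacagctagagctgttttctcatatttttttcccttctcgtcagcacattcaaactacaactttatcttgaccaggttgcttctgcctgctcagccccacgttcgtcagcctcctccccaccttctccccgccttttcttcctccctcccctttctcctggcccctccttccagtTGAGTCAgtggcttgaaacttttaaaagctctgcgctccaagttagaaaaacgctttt
Atp1b2: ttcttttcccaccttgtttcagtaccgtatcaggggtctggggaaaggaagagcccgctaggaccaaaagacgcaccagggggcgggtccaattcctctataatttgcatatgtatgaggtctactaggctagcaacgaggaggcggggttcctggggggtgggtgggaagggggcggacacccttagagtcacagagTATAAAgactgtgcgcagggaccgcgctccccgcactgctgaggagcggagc
Gfap: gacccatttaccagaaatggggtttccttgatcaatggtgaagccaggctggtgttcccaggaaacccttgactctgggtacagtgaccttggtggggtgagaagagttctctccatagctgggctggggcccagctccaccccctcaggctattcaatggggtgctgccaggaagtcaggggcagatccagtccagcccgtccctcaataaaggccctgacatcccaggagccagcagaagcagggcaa

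Both strands were searched for 5 motifs, and the share of all 33469 promoter windows of the same length that held each was counted. The AP-1 letters TGANTCA were held by 6.34% of windows, and in that of Gja1 they began at position -58 before the start site. The TATA box letters TATAAA were held by 12.9%, and in that of Atp1b2 they began at position -52. The STAT letters TTCNNNGAA were held by 7.67%, the SOX letters AACAAT by 10.3% and the nuclear factor I palindrome by 0.0359%. The Gfap window held none of the 5, which says only that these letters are not in it. Promoter windows were found for 9 of the 10 genes, 13 in all, and no other member's window held a match. A single arm of that palindrome, TTGGC, occurred in 40.3% of all windows and was not marked.

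Gfap, the filament gene, spread most between animals. It measured 11.16, 10.86, 10.66 and 10.83 in noodle-diet rats 1, 4, 7 and 13, and 11.09, 11.35, 11.11, 10.67 and 10.45 in control rats 2, 5, 8, 11 and 14. The highest and the lowest of the 9 rats were both controls, and the noodle-diet values lay wholly inside the control range. The means were 10.88 ± 0.21 (SD, n = 4) on the noodle diet and 10.93 ± 0.36 (SD, n = 5) on the control diet, and limma's estimate of noodle minus control was -0.056 (SE 0.20).

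Aqp4, the water channel gene of astrocyte endfeet, was measured by a pair of variable probe sets. In 1368981_at the noodle-diet rats stood at 9.24, 9.03, 8.90 and 8.80 and the controls at 8.80, 9.27, 8.88, 8.81 and 8.62, in the order of rats used for Gfap. In 1372190_at they stood at 11.19, 11.08, 10.93 and 11.002 against 10.997, 11.07, 10.98, 10.99 and 10.92. In both, noodle-diet rats 1 and 4 and control rat 5 were the 3 highest and control rat 14 was the lowest, and the diets overlapped. Their differences between diets were 0.12 (SE 0.14) and 0.059 (SE 0.054).

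S100b showed the largest difference between diets among the members. It measured 12.78, 12.54, 12.39 and 12.63 in the noodle-diet rats and 12.21, 12.69, 12.28, 12.14 and 12.59 in the controls. Each of the 4 noodle-diet rats stood above the control median, but control rats 5 and 14 lay within the noodle-diet range. The means of 12.58 ± 0.16 (SD, n = 4) and 12.38 ± 0.24 (SD, n = 5) differed by 0.20 (SE 0.13), or 1.15-fold with a 95% interval of 0.93 to 1.43. The interval includes no difference.

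Gja1, the connexin gene of astrocyte gap junctions, measured 8.62, 8.12, 8.20 and 8.43 in noodle-diet rats 1, 4, 7 and 13 by its variable probe set. The controls stood at 8.09, 8.33, 8.39, 8.37 and 8.25. Noodle-diet rat 1 was the highest and control rat 2 the lowest, and the groups overlapped. The diet means of 8.34 ± 0.23 (SD, n = 4) and 8.29 ± 0.12 (SD, n = 5) differed by 0.057 (SE 0.11).

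Atp1b2, the glial sodium pump subunit, measured 11.37, 10.87, 10.89 and 11.11 in the noodle-diet rats and 10.81, 10.94, 11.18, 11.16 and 11.14 in the controls by probe set 1379906_at. Its other probe set, 1369798_at, measured 8.05, 7.91, 7.87 and 7.97 against 7.81, 7.88, 7.93, 8.06 and 7.95. Control rat 2 was the lowest in both, and the wider spread of the first (range 0.554 against 0.247) came with a similar order of rats. The differences between diets were 0.0098 (SE 0.12) and 0.020 (SE 0.055).

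Aldoc, the aldolase gene used as a marker of astrocytes, had the narrowest range of the 8. It measured 11.78, 12.02, 11.98 and 11.98 in the noodle-diet rats and 11.82, 12.01, 12.02, 11.99 and 11.89 in the controls. Noodle-diet rat 1, at or near the top in the other members, was the lowest here, followed by control rat 2. The diet means of 11.94 ± 0.11 (SD, n = 4) and 11.95 ± 0.085 (SD, n = 5) differed by -0.0064 (SE 0.061).

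**Figure D2:**
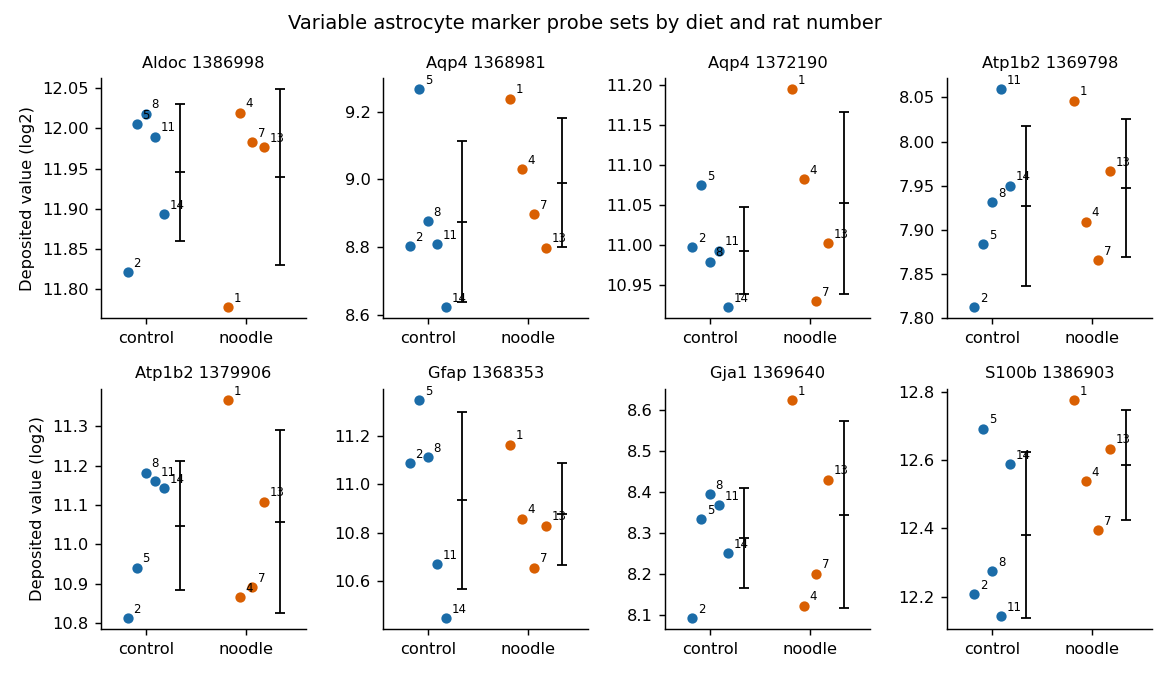
Deposited log2 values of the 8 variable probe sets in each rat, with blue points for the 5 control rats and orange points for the 4 noodle-diet rats, labelled by rat number; bars give mean ± SD, and each panel has its own axis range. Noodle-diet rat 1 is highest of the 9 in 4 panels and lowest in that of Aldoc, and the diets overlap in every panel.

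The glutamate transporter genes, the angiotensinogen gene and the growth factor receptor gene gave compressed values. Slc1a3 held 11.01, 9.81 and 6.89 in its 3 probe sets and Slc1a2 held 7.33 and 7.08 in its 2. Agt held 11.01, and Fgfr3 held 9.11 and 7.25. Levels of different probe sets are not comparable, so these figures do not rank the genes. Over the 11 compressed probe sets the diets differed by between -0.00019 and 0.00032, and 7 were higher on the noodle diet.

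To ask whether the seasonings altered astrocyte transcripts, the diets were compared by limma, fitted to all 31042 probe sets. None of the 19 astrocyte marker probe sets passed an adjusted p of 0.05, with 0 of all probe sets passing (0%), and every member's adjusted p rounded to 1. The exact permutation test over the 126 ways to assign 4 of the 9 rats to the noodle diet called 0 (0%) after adjustment. The smallest unadjusted p it can give is 0.0079. Over 31042 probe sets none could pass adjustment unless very many reached that p together, so this 0 adds little to that of limma. Before adjustment 646 of all probe sets stood below 0.05 in the exact test. In 0 of the 19 did the diets not overlap, where the share over all probe sets was 0.567%.

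Among the variable members the lowest unadjusted p was that of S100b, 0.170 by limma and 0.183 by the exact test. Of these 8 probe sets 6 were higher on the noodle diet and those of Gfap and Aldoc lower, where 51.9% of all 1223 variable probe sets were higher. Their median difference was 0.0383 log2 units, against 0.0035 over all variable probe sets. With few probe sets, several of them of the same gene and moving together, these counts are a description. Over all 19 probe sets 13 were higher, where 48% of the 31042 were.

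At an unadjusted p under 0.05 stood 2 members, both compressed, where 2.29% of all probe sets and 0.899% of the variable ones did. They were the Slc1a2 probe set 1369693_a_at (difference 0.00032, limma p = 0.0254, adjusted p = 1, exact permutation p = 0.0317) and the Fgfr3 probe set 1384056_at (0.00021, limma p = 0.0461, adjusted p = 1, exact permutation p = 0.0556). All 4 noodle-diet rats exceeded the control median in both. After quantile normalization, in which arrays are given one common distribution, the differences turned to -0.00030 and -0.0017, and the other Fgfr3 probe set stood at -1.8e-05 as deposited. The second Slc1a2 probe set stood at 0.00032 with a limma p of 0.150 (adjusted p = 1).

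**Figure D3:**
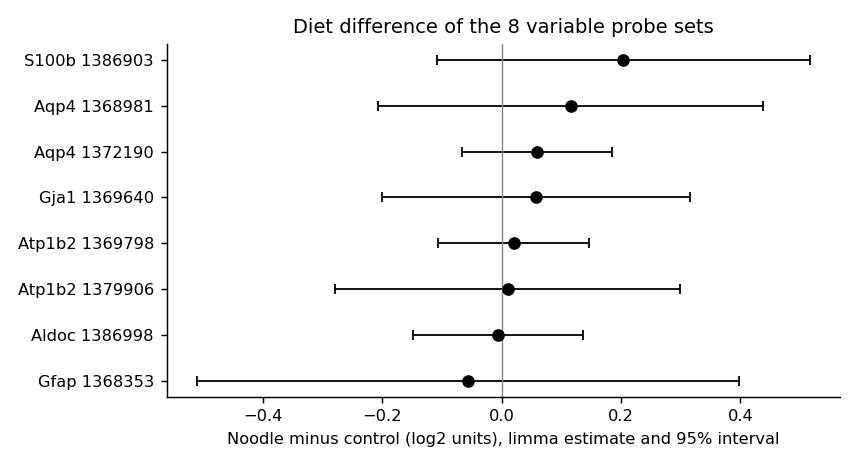
Difference between diets (noodle minus control, log2 units) of the 8 variable probe sets, as limma estimates with 95% intervals. All intervals include 0, the widest being that of Gfap (-0.51 to 0.40) and the highest estimate that of S100b (0.20).

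The precision differed between members. The 95% interval ran from -0.066 to 0.18 for Aqp4 1372190_at, from -0.11 to 0.15 for Atp1b2 1369798_at and from -0.15 to 0.14 for Aldoc. For Gfap it ran from -0.51 to 0.40, which is a fold between 0.702 and 1.32. Without noodle-diet rat 1 the direction turned in 4 of the 8 variable probe sets, with Gja1 at -0.036, Atp1b2 at -0.093 and -0.013 and Aldoc at 0.047. It stayed for S100b at 0.14, the Aqp4 probe sets at 0.033 and 0.012 and Gfap at -0.15. Gfap turned positive without control rat 5 (0.047) or noodle-diet rat 7 (0.017). In a whole hypothalamus, fewer astrocytes and less of a transcript per astrocyte cannot be told apart.

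The members' values did not all vary together between animals. Over the 28 pairs of variable probe sets, Pearson r ran from -0.35 to 0.90, and 5 pairs had an unadjusted exact permutation p under 0.05. After Benjamini-Hochberg adjustment over the 28 pairs, 3 passed, of which 2 joined probe sets of the same gene. Spearman's rho gave 0 pairs after adjustment.

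By Pearson r, Gja1 and Atp1b2 varied together. Gja1 and Atp1b2 1379906_at had r = 0.897 (exact permutation p = 0.00153, adjusted 0.0377) and rho = 0.867 (exact p = 0.00451, adjusted 0.126), n = 9 rats. The r was 0.908 after each diet's mean was subtracted, 0.766 within the 5 controls and 0.737 without the 2 rats farthest from the median. Without noodle-diet rat 1, the highest in both, r was 0.818 (exact permutation p = 0.0259, adjusted 0.241). With single rats left out the adjusted p passed only without control rat 5 or control rat 14. The second Atp1b2 probe set gave r = 0.767 with Gja1 (exact permutation p = 0.0164, adjusted 0.0953; rho = 0.767, exact p = 0.0214, adjusted 0.200), and 0.807 without its 2 farthest rats. Among the 1222 other variable probe sets, Atp1b2 1379906_at ranked 5 by its r with Gja1, and Gja1 ranked 3 by its r with that Atp1b2 probe set.

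Probe sets of the same gene followed each other. For Atp1b2 r was 0.861 (exact permutation p = 0.00269, adjusted 0.0377; rho = 0.800, exact p = 0.0138, adjusted 0.194), 0.902 without the 2 farthest rats and 0.809 without noodle-diet rat 1. For Aqp4 r was 0.838 (exact permutation p = 0.00413, adjusted 0.0385; rho = 0.617, exact p = 0.0857, adjusted 0.400), 0.696 without the 2 farthest rats and 0.780 without noodle-diet rat 1. With single rats left out, the adjusted p of the Atp1b2 pair passed only without control rat 11 and that of the Aqp4 pair in no case. After quantile normalization the Aqp4 pair no longer passed (r = 0.809, adjusted exact permutation p = 0.088).

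Gfap had its highest r among the members with Aqp4. Among the 1222 other variable probe sets, however, Aqp4 1368981_at ranked only 263 and 1372190_at 381 by their r with Gfap. With Aqp4 1368981_at r was 0.761 (exact permutation p = 0.0170, adjusted 0.0953; rho = 0.683, exact p = 0.0503, adjusted 0.282) and with 1372190_at 0.650 (exact permutation p = 0.0542, adjusted 0.253; rho = 0.7, exact p = 0.0433, adjusted 0.282). These did not pass after adjustment. After diet means were subtracted the first was 0.829 (adjusted permutation p = 0.0436, approximate for centred values), and without its 2 farthest rats it was 0.470. Of Gfap with Gja1 r was 0.285 and with the Atp1b2 probe sets -0.015 and -0.20, with exact permutation p of 0.458, 0.970 and 0.606. The difference between these correlations was not tested.

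For S100b and Aldoc no pair reached an unadjusted p under 0.05. S100b had r of 0.528 and 0.552 with the Aqp4 probe sets (exact permutation p = 0.148 and 0.121), and 0.348 and 0.296 without noodle-diet rat 1. Aldoc had r between -0.35 and -0.04 with the other 7 probe sets, and without noodle-diet rat 1 between 0.15 and 0.54, so its sign against the others rests on that rat. Without its 2 farthest rats, noodle-diet rat 1 and control rat 2, Aldoc had r of 0.706 and 0.666 with the Aqp4 probe sets, 0.711 with Gfap, 0.0553 with Gja1 and -0.35 and -0.18 with those of Atp1b2. Within the 5 controls its r with Gja1 was 0.969.

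**Figure D4:**
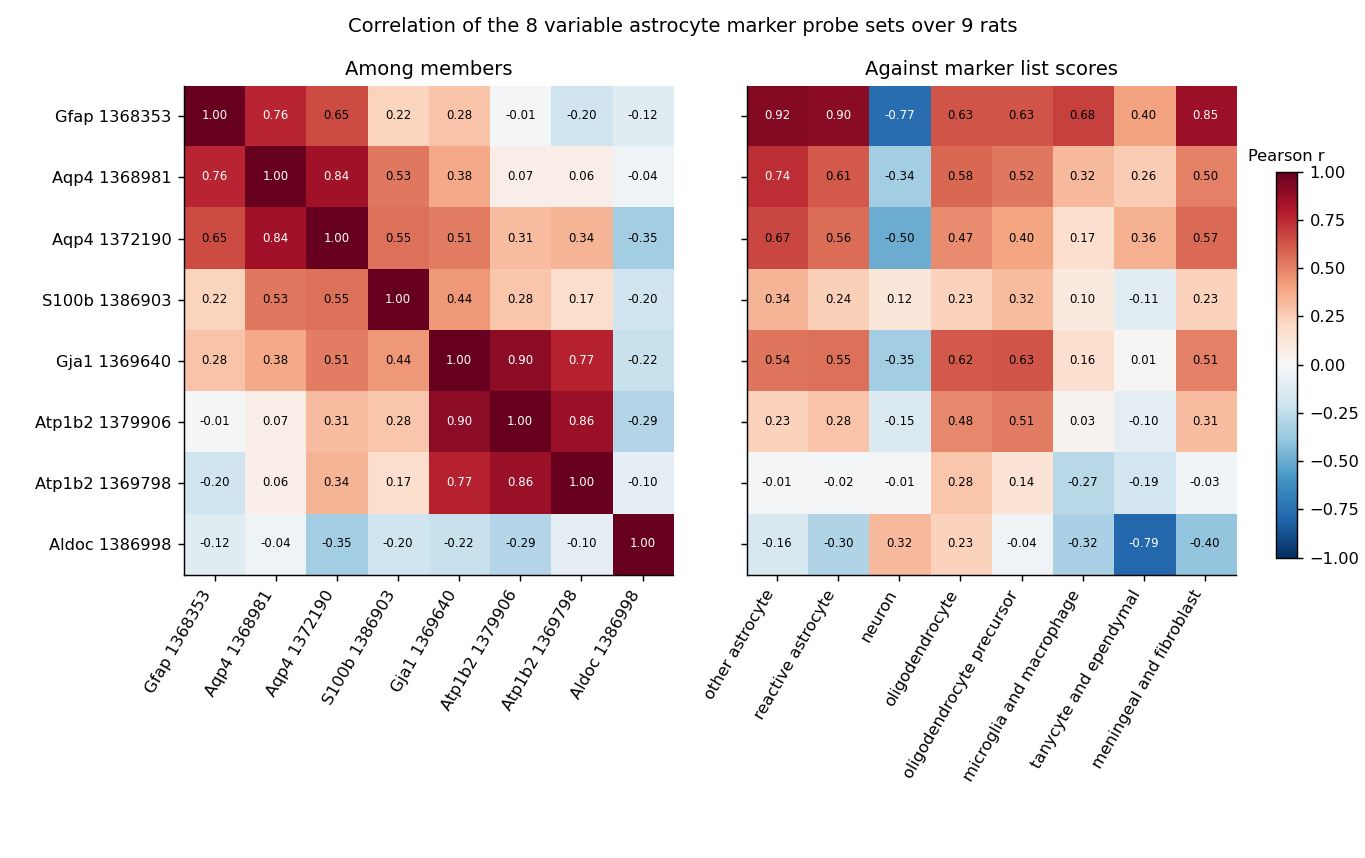
Pearson r over the 9 rats among the 8 variable probe sets (left) and between each of them and the per-rat score of 8 marker lists (right), on a colour scale from -1 to 1. Gfap and Aqp4 are red together, Gja1 and Atp1b2 are red together, and Gfap has r = 0.92 with the other astrocyte markers and 0.85 with the meningeal list.

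The members were next set against the variable markers of other cells, scored per rat as the mean deviation of a list's variable genes from their means. Of 64 relations, 0 passed by the exact permutation test after adjustment. Before adjustment 8 stood below 0.05, of which 5 were those of Gfap. Gfap had r = 0.917 (exact permutation p = 0.00083, adjusted 0.0533; rho = 0.917, exact p = 0.0013, adjusted 0.0840) with 11 other astrocyte markers. It had r = 0.904 (exact permutation p = 0.0017, adjusted 0.0547; rho = 0.867, exact p = 0.0045, adjusted 0.0962) with 7 genes of reactive astrocytes. Without the 2 farthest rats these were 0.877 and 0.873, and without noodle-diet rat 1 0.922 and 0.901. With diet means subtracted both passed (r = 0.949, adjusted p = 0.0136, and r = 0.903, adjusted p = 0.0414, by permutation over all rats). That permutation is only approximate for centred values, which are tied to their diet's mean. The first also passed without control rat 5 (r = 0.926, adjusted exact permutation p = 0.0405) and the second without noodle-diet rat 4 (r = 0.964, adjusted exact permutation p = 0.0206).

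The single markers differed in their r with Gfap. The lipoprotein and clearance protein Clu had r = 0.91 with it, the transcription regulator Id3 0.87, the cholesterol-esterifying enzyme Lcat 0.81, the connexin Gjb6 0.78, and Vim, the filament partner of Gfap, 0.90. The glutamine synthetase gene Glul stood at -0.36, Ndrg2 at -0.43 and the lipid phosphatase Plpp3 at 0.048. Between these stood F3 at 0.73, Mlc1 at 0.68, Aldh1l1 at 0.59 and Cbs at 0.24. The reactive genes S100a10, Serping1 and Timp1 had r of 0.92, 0.88 and 0.84, Cp 0.83, C3 0.71 and Hspb1 0.36. These r over 9 rats are given as descriptions. Several of these genes, such as Vim, Id3 and Timp1, are also made by cells other than astrocytes. Which cells underlie their relation to Gfap was not tested.

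Markers of the meninges had a high r with Gfap that did not pass after adjustment. Over 11 variable meningeal and fibroblast genes, of 11 measured, the score ran from -0.495 to 0.712 on the noodle diet and from -0.589 to 0.559 on the control diet. Gfap had r = 0.853 with it (exact permutation p = 0.0061, adjusted 0.130; rho = 0.867, exact p = 0.0045, adjusted 0.0962), 0.940 without the 2 farthest rats and 0.846 without noodle-diet rat 1. Without control rat 5 it was 0.924 and passed (adjusted exact permutation p = 0.0405). Relations between list scores were added after the data were seen. The lists were chosen with earlier results of these data known, so p-values between scores are descriptions only. The meningeal score in turn had r = 0.926 with the score of other astrocyte markers and 0.955 with that of reactive genes (exact permutation p = 0.00051 and 0.00068, adjusted 0.00635 for both over 28 pairs of scores; rho = 0.917 and 0.900, adjusted exact p = 0.0184 and 0.0189). With neuron markers Gfap had a negative r that did not pass (r = -0.765, exact permutation p = 0.0173, adjusted 0.259; rho = -0.717, adjusted 0.517). With microglia and macrophage markers it had r = 0.680 (exact permutation p = 0.0458, adjusted 0.367; rho = 0.650, adjusted 0.517), 0.798 with diet means subtracted and 0.842 within the 5 controls. What part the meningeal, neuronal or microglial share of a sample has in the Gfap values was not tested.

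For the other members no relation to a list passed after adjustment. With the meningeal score r was 0.506 for Gja1, 0.567 and 0.501 for the Aqp4 probe sets, 0.306 and -0.027 for those of Atp1b2, 0.227 for S100b and -0.40 for Aldoc, with exact permutation p between 0.108 and 0.945. The Aqp4 probe sets had r of 0.736 and 0.670 with the other astrocyte markers (exact permutation p = 0.0242 and 0.0449, adjusted 0.259 and 0.367). Aldoc had r = -0.786 with tanycyte and ependymal markers (exact permutation p = 0.0219, adjusted 0.259; rho = -0.500, exact p = 0.178), and 0.176 without the 2 farthest rats, noodle-diet rat 1 and control rat 2, so this relation rests on those animals.

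**Figure D5:**
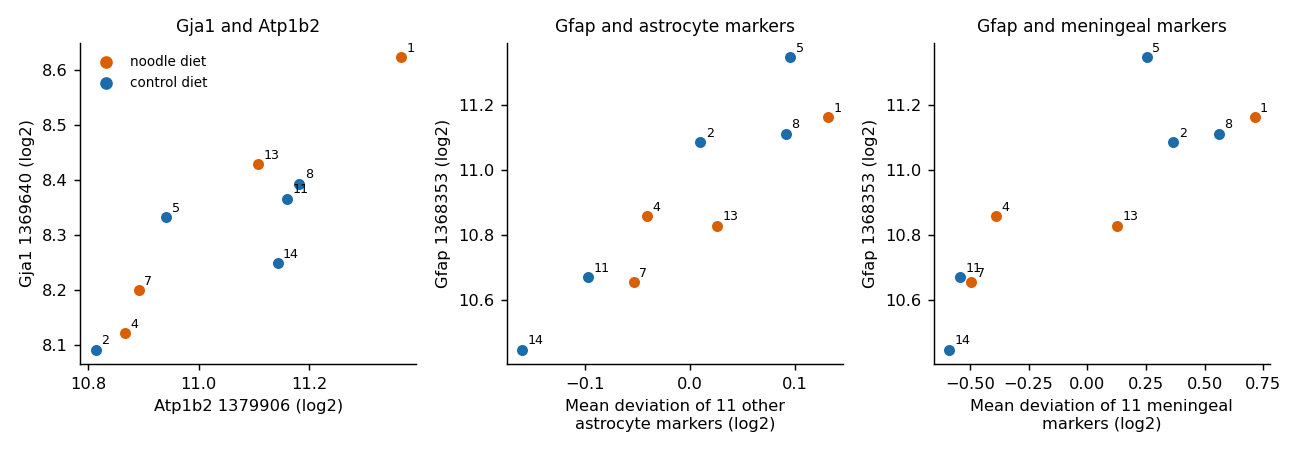
Each point is 1 rat, orange for the noodle diet and blue for the control diet, labelled by rat number, with log2 values or mean log2 deviations on the axes. Gja1 rises with Atp1b2 (left, r = 0.897), and Gfap rises with the score of 11 other astrocyte markers (middle, r = 0.917) and with that of 11 meningeal markers (right, r = 0.853), with both diets along each trend.

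With the 10 astrocyte marker genes themselves left out, the genes most like each member differed between members, by Pearson r over the 9 rats among named variable probe sets. For Gfap they were Cxcl16, Pdzrn3, RT1-Da, Lyz2 and Sdc4 (r from 0.953 to 0.973), and 326 of the 1222 other variable probe sets had r over 0.7 with it. For Gja1 they were Cyb5a, Elovl5, Laptm4a, Serp1 and Ssr3 (0.895 to 0.924), with 58 over 0.7. For Atp1b2 1379906_at they were Ssr3, Lmbrd1, Yipf4, Selenot and Elovl5 (0.875 to 0.943), so Ssr3, a subunit of the endoplasmic reticulum translocon, and the fatty acid elongase Elovl5 stood in both lists. The other Atp1b2 probe set was nearest to App, Yipf4, Idi1, Ssr3 and Rtn4 (0.817 to 0.879).

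For Aqp4 1368981_at the nearest were the metallothionein Mt2A, the RNA-binding protein gene Zfp36l1, the metalloprotease Mmp14, Gab1 and Slc16a1 (0.886 to 0.925). For 1372190_at they were Mgp, Mgst1, Zfp36l1, Gsta1 and Igf1r (0.873 to 0.938). S100b was nearest to Tmem44, the urea transporter Slc14a1, Id2, Septin11 and Laptm4b (0.793 to 0.842), with 18 probe sets over 0.7, against 326 for Gfap. Aldoc was nearest to the calcium-binding protein gene Calb2, the histocompatibility gene RT1-S3, Avp, Thy1 and Ccdc77 (0.800 to 0.879). Without noodle-diet rat 1 these ran from 0.579 (Thy1) to 0.880 (RT1-S3).

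Genes beyond the 10 that belong to the same systems gave no call between diets. Of 34 other astrocyte markers measured, 27 were higher on the noodle diet and 7 lower with 0 passing by limma, at a median difference of 5.9e-05, where 48.3% of all named genes were higher with a median of -5e-06. Of the 11 variable ones 9 were higher, among them Plpp3 at 10.53 ± 0.15 (SD, n = 4) against 10.39 ± 0.17 (SD, n = 5). The others were compressed and cannot show a fold change, so these counts are a description. Of 13 genes of reactive astrocytes 6 were higher and 7 lower with 0 passing, and of their 7 variable ones 6 were lower. Complement C3, which some reactive astrocytes make, measured 6.83 ± 0.44 (SD, n = 4) against 7.13 ± 0.46 (SD, n = 5).

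Of the 15 water, potassium and gap junction genes measured, which include Aqp4, Gja1 and Atp1b2, 13 were higher and 2 lower, with 0 passing. Over all named genes 48.3% were higher. Only 7 of the 15 were variable, 6 of them higher and 1 lower, and the median difference was 0.00015. With each gene taken at its probe set of highest mean, 11 of the 15 were higher. The second astrocyte connexin Gjb6 measured 8.81 ± 0.20 (SD, n = 4) against 8.82 ± 0.26 (SD, n = 5). Of 10 glutamate uptake and glutamine cycle genes 5 were higher, and of these 2 were variable, Glul and Slc38a2, at differences of 0.028 and 0.014. Among 15 fibroblast growth factor ligands, receptors and targets Fgfr2 alone was variable (8.71 ± 0.055 against 8.68 ± 0.12, SD, n = 4 and 5), 9 were higher and 0 passed. Of 9 renin-angiotensin genes measured 4 were higher and of 18 glycolysis genes 11. In the S100 list of 11 genes, which includes the receptor gene Ager, 5 were higher. In each of these lists 0 passed by limma. At an unadjusted p under 0.05 stood 0 genes of the other astrocyte, reactive, water, glutamate, glycolysis and S100 lists and 1 each of the growth factor and renin-angiotensin lists, the members' own Fgfr3 and the angiotensin receptor gene Agtr1a (compressed, difference -0.00035).

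Of the marker lists of other cells, 0 genes passed between diets by limma. At an unadjusted p under 0.05 stood 2 of 13 microglial genes measured, 1 of 5 oligodendrocyte precursor genes and 1 of 8 tanycyte or ependymal genes. The same held for 338 of all 14217 named genes. Among the 2 microglial ones was the complement gene C1qa, at 8.47 ± 0.17 (SD, n = 4) against 8.73 ± 0.16 (SD, n = 5). The microglial score of 5 variable genes ran from -0.174 to 0.0392 on the noodle diet and from -0.0719 to 0.203 on the control diet, a difference of -0.142 between the means. Of these genes 4 were lower on the noodle diet, C1qa, C1qb and C1qc among them, and P2ry12 was higher (difference 0.037). The part of this score in the members' differences was not tested. The oligodendrocyte score ran from -0.125 to 0.198 and from -0.244 to 0.388, and the neuron score from -0.0721 to 0.0892 and from -0.0996 to 0.137. All 14 hypothalamus markers were measured, 9 of them variable, among them Avp, Oxt, Hcrt and Trh. Noodle-diet rat 1, high in most astrocyte markers, had the lowest Avp (10.49), Oxt (8.66) and Trh (8.39) of the 9 rats. Its Hcrt (9.70) was not the lowest, which was that of control rat 2 (8.75). Noodle-diet rat 1 also had the highest meningeal score of the 9 rats (0.712). Its scores of other astrocyte markers (0.131) and of reactive genes (0.389) were the highest as well.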

How the data were processed

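The authors deposited 1 table of log2 expression values with a column for each of 9 rats; the log2 scale was read from the range of the values (5.13 to 13.7), and the summarization of probes and normalization of arrays were not given in the sources used here. Per the labels' protocols, RNA was extracted with TRIzol, cleaned on a column, and labelled from 100 ng. Array medians lay between 6.777 and 6.785, and values were used as deposited. The number of arrays limits the precision. The 57 control probe sets were left out, and probe sets were named by the platform annotation updated by gene number (GRCr8 gene table, 0 symbols changed; 20826 have 1 symbol, 436 several, 9780 none). Group and rat number come from each sample's title, and each array is a different rat.

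Diets were compared with limma (3.58.1, R 4.3.3; lmFit, eBayes with an intensity trend, 2-sided, Benjamini-Hochberg over 31042 probe sets, threshold 0.05) and an exact 2-sided permutation test. Correlations used exact permutation over pairings (numpy 2.4.6). With diet means subtracted this permutation is approximate, since centred values are tied to their diet's mean. The code was tested on simulated data. For counts over lists, each gene was taken at its probe set of largest range. Named were all member probe sets, up to 4 genes of largest range per list, and the 5 named genes, members left out, of highest r with each variable member; the markers of Gfap's lists, Agtr1a and the hypothalamic markers were singled out after their values were seen. The members and the 18 lists were chosen with earlier results of these data known. The limit of 0.05 on the range was chosen with the values known. Alternatives tried were quantile normalization, a common array median, other variance models, array weights, filters on probe sets, Spearman's rho, subtracted diet means and each rat left out; values without noodle-diet rat 1, relations between list scores and rho for compressed probe sets were added after seeing the data.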

Additional observations from a re-analysis of the deposited data

Results flagged for a closer look

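Among 180 groups of 4 or 5 rats (both diets, for each probe set named with values and each list score), 8 had 1 rat far from the rest of its diet, where chance gives about 9. None was a probe set of the 10 astrocyte marker genes. The nearest to them was the glutamine synthetase gene Glul, which stood at 9.69 in noodle-diet rat 4 and at 9.854 to 9.870 in the others of its diet. The glycolytic gene Eno1 stood at 10.70 in noodle-diet rat 7, with the others at 10.41 to 10.46. In noodle-diet rat 1 the myelin lipid gene Ugt8 stood high at 8.347 (others 7.858 to 7.904), and Oxt at 8.665 (others 10.21 to 10.52) and Avp at 10.49 (others 11.64 to 11.84) stood low. In control rat 14 the GABA vesicle transporter gene Slc32a1 stood at 9.092 (others 8.669 to 8.751), and in control rat 5 the compressed pericyte gene Abcc9 at 6.411829 (others 6.410813 to 6.411066). The score of tanycyte and ependymal markers was 0.235 in control rat 2 and -0.1 to -0.0146 in the other controls.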

How the results depend on the processing

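No call between diets was made under any setting: limma gave 0 probe sets with the deposited values and 0 under each of its alternatives. Feeding was paired, but the sample titles name no pairs of rats. A block on sets of neighbouring rat numbers also gave 0. It sets each noodle-diet rat beside the control rat of the next number and leaves control rat 11 alone. Whether those rats were fed as pairs is not known.

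Directions of small differences turned. The cause was not tested. Aldoc stood at 0.0039 after quantile normalization, 0.019 with array weights and 0.0046 with the block. After quantile normalization Aqp4 1387397_at stood at -0.0011, Fgfr3 1384056_at at -0.0017, Slc1a2 1369693_a_at at -0.00030 and Slc1a3 1388064_a_at at -0.00036. With a common array median Fgfr3 1369373_at stood at 3.6e-05 and Slc1a3 1371130_at at 1.4e-07, and with array weights Fgfr3 1369373_at stood at 1.4e-05.

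With single rats left out, Aldoc ran from -0.037 to 0.047, Atp1b2 1369798_at from -0.013 to 0.053 and 1379906_at from -0.093 to 0.074, Gfap from -0.18 to 0.047 and Gja1 from -0.036 to 0.13. Of the compressed ones, Aqp4 1387397_at ran from -0.00010 to 0.00015, Fgfr3 1369373_at from -6.1e-05 to 1.6e-05, Slc1a3 1368565_at from -1.9e-05 to 4.96e-05 and 1388064_a_at from -7.4e-06 to 0.00012.

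Pairs of members past the adjusted threshold numbered 3 by Pearson r, 2 after quantile normalization, 4 with diet means subtracted, 0 by rho and 0 to 1 with single rats left out. Relations to marker lists past it numbered 0, 2 with diet means subtracted and 0 to 2 with single rats left out. The count of 8 variable probe sets was the same at limits of 0.01 and 0.1.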
